A study of Mus musculus with 8 samples.

Results

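The histone genes of mouse embryonic fibroblasts were followed in poly(A) RNA libraries under an inducer of ferroptosis, a compound sold as an activator of SIRT1, and their combination. Members were the rows of the deposited gene table whose symbol is that of a clustered H2A, H2B, H3 or H4 gene (H2ac, H2bc, H3c or H4c with a number) or of a linker histone (H1f with a number), together with H2az1, H2az2, H2ax, H3f3a and H3f3b. They came to 66 of the 17910 genes in the table. Of these, 57 were replication-dependent genes (14 of H2A, 15 of H2B, 12 of H3, 11 of H4 and the linker genes H1f1 to H1f5), 5 were variants, and 4 were other linker genes (H1f0, H1f10, H1f6 and H1f8). The fibroblasts, which the labels call wild type (WT) and purchased, carried no named allele in any group. There were 4 groups of 2 libraries, with RNA taken at 2 h per the titles: control cells (CTL), cells given 0.2 µM SRT1720, cells given 1 µM RSL3 for 2 h, and cells given SRT1720 30 min before RSL3. RSL3 inhibits GPX4, the peroxidase that reduces lipid hydroperoxides. The labels do not say whether the libraries of a group came from separate cultures, so p-values measure the spread between these libraries, which may be technical.

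A new chromosome needs as much histone as DNA, and the replication-dependent genes are known for supplying the bulk of it during S phase from multicopy clusters. Their mRNAs are unusual in ending at a short RNA hairpin in place of a poly(A) tail: the hairpin is bound by SLBP, and the U7 snRNP, which contains Lsm10 and Lsm11, directs cleavage just behind it by the endonuclease Cpsf3. Variant genes such as H3f3a and H2az1 have introns, are polyadenylated and are expressed outside S phase, and some clustered genes are known to make a polyadenylated form besides the hairpin form. The library kit enriches RNA with poly(A) tails, so a count of a replication-dependent gene here is of the RNA the kit retained and does not give the gene's total mRNA.

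The hairpin is shown first for members on which the results turn. It was searched as a sequence pattern of the 16-base histone stem-loop, with alternative bases allowed at some positions. The search used mouse transcripts of GENCODE M21 (GRCm38), on the transcript strand. Each line gives 5′ to 3′ the hairpin in capitals with up to 7 bases on either side.
H2ac24: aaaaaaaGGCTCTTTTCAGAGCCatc
H2ac18: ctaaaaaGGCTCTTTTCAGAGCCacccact
H3c15: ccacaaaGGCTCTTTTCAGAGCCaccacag
H4c9: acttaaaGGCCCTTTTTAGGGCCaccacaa
H3c8: ctttaaaGGCTCTTCTTAGAGCCacccatc
H2ax: ccacaaaGGCCCTTTTAAGGGCCaccacct
The hairpin was found in 39 of the 57 replication-dependent genes, of which 46 had an annotated 3′ UTR, and in 135 of 58797 protein-coding transcripts of the annotation (0.230%). Members were searched in the 3′ UTR only and counted by gene. The 58797 transcripts were searched over their whole length, so these shares come from unlike searches. It took 8 forms among those 39 genes, and the form of H2ac24, H2ac18 and H3c15 was shared by 22 of them. The annotated transcript of H2ac24 ended 3 bases behind the hairpin, that of H2ac18 ended 35 bases behind it, and that of H3c15 ended 377 bases behind it. Transcripts of 19 genes ended within 60 bases of the hairpin and those of 20 genes ran farther, for example 330 bases in H4c9 and 840 bases in H1f2. A poly(A) signal (AATAAA or ATTAAA in the last 50 bases) was found in 12 of the 57 replication-dependent genes, in 5 of 5 variants and in 4 of 4 other linker genes. H2ac24, H2ac18, H3c13 and H3c15 had none there, and H4c9, H1f2 and H2bc21 had one. H2ax had both the hairpin and a signal, the latter at an end 822 bases farther on.

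Promoters are shown for a pair of H2A genes that moved in opposite directions under RSL3. They are RefSeq sequences of GRCm38.p6 that run from 250 bases before to 50 bases after the annotated start, and are written 5′ to 3′ on the gene's strand, with TATAA and CCAAT on either strand in capitals (ATTGG is CCAAT on the other strand).
H2ac24 (minus strand, chr13:21833426-21833725): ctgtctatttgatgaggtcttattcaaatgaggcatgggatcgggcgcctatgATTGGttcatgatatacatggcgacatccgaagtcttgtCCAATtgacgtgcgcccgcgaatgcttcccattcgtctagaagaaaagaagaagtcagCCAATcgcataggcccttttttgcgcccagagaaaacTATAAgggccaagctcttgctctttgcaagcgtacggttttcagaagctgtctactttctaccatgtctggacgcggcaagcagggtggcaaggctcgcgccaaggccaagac
H2ac18 (plus strand, chr3:96245247-96245546): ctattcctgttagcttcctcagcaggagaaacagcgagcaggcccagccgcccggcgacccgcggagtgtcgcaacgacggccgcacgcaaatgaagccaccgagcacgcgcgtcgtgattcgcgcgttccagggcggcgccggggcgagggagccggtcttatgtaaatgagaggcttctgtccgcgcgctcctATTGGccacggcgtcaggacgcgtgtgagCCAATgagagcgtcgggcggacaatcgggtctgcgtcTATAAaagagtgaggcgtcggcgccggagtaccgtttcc
Of the 57 replication-dependent genes, 52 had a promoter in the RefSeq table. TATAA was in 41 of the 52, against 20.02% of the 14098 promoters of genes in the deposited table, and CCAAT was in 45 of the 52, against 42.6%. CCAAT was found in 3 of 10 H4 promoters and in every promoter of the H1, H2A, H2B and H3 genes (5, 14, 13 and 10). The octamer ATTTGCAT, searched on both strands, was in 11 of the 52, which were 6 of 13 H2B and 5 of 14 H2A promoters, against 1.74% of all promoters. H2ac24 and H2ac18 both hold TATAA and CCAAT and neither holds the octamer.

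The libraries held 20579122 to 21287620 counts each, and the members together took 0.142% to 0.236% of them. The 57 replication-dependent genes were unevenly represented. In control cells 4 genes (H2ac24, H2bc4, H1f2 and H4c9) made up 94.4% and 94.7% of their summed level, and 38 genes were too low for a test at a minimum of about 10 counts in 2 libraries. Per kilobase of the longest annotated transcript, the control level of H2ac24 was 338 CPM (counts relative to the library total, corrected for composition by TMM), which stood between H2az1 at 420 and H3f3b at 240 and far above H2bc4 at 23.1, H1f2 at 15.7 and H4c9 at 5.998. Counting of these short and similar genes was less certain than for most. Of their values above 0, 90.1% were not whole numbers, against 27.1% in the whole table, as arises where reads are divided between genes. Of the variants' values above 0, 75% were not whole numbers. The share of 100-base words that a gene's transcripts have in common with another gene was 37.1% at the median of the 57, 92.2% in H2ac24, 88.3% in H2ac18, 77.1% in H3c13 and 61.6% in H3c15, against a median of 2.44% in the variants. The highest share among the variants was 29.7%, in H2az1. How reads were divided between genes that share words is uncertain, and sums over families are given beside single genes for that reason.

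**Figure D1:**
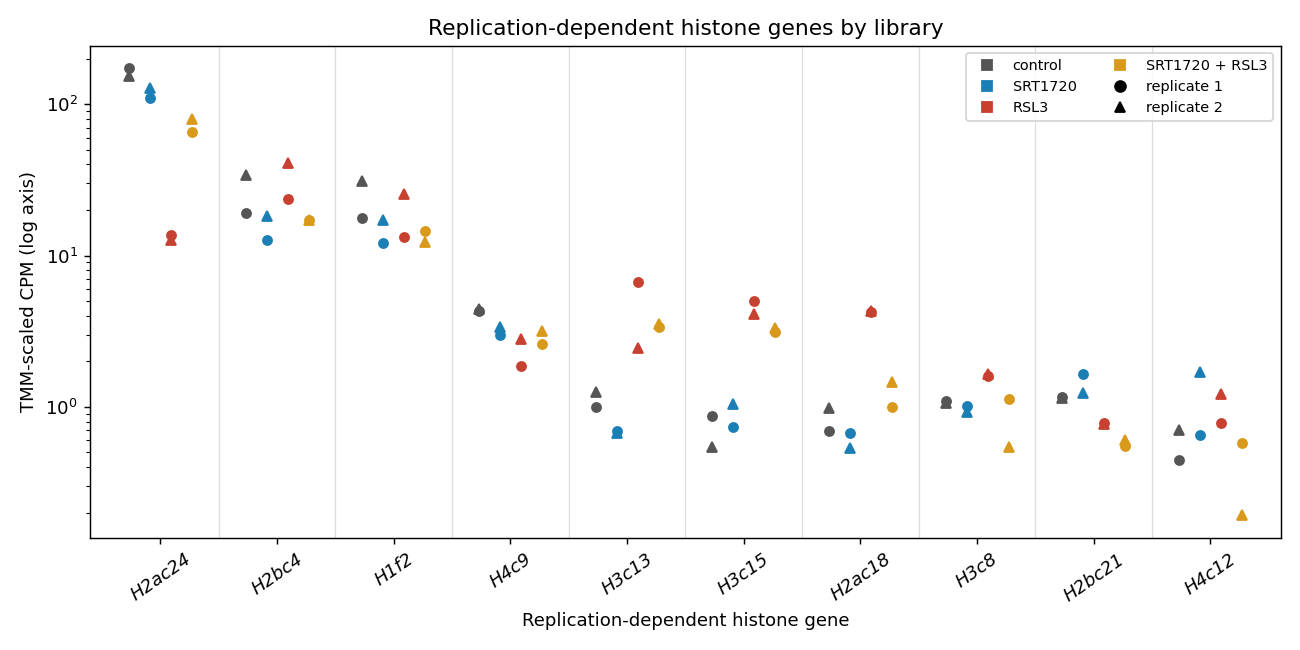
The 10 replication-dependent histone genes with the highest mean level, plotted as TMM-scaled CPM on a log axis against gene, with 1 point per library, colour for the group and symbol for the replicate. H2ac24 sits at 153 to 173 CPM in control libraries and at 12.7 and 13.6 CPM in RSL3 libraries, whereas H3c15 and H2ac18 are highest in RSL3 libraries. H3c13 is highest in RSL3 replicate 1, but its other RSL3 library lies below both SRT1720 plus RSL3 libraries.

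RSL3 was first set against control, the comparison that asks what differed after 2 h of RSL3. H2ac24 (Gene ID 319171), which encodes a canonical H2A, carried most of the loss. Its deposited expected counts were 4023 and 3459 in control, 2464 and 2892 in SRT1720, 259 and 242 in RSL3, and 1314 and 1587 in SRT1720 plus RSL3 libraries. As CPM these were 173 and 153, 110 and 128, 13.6 and 12.7, and 65.5 and 80.2, in the same order of groups. No library of any group overlapped with one of another group, and the order from high to low was control, SRT1720, SRT1720 plus RSL3 and RSL3. The fall under RSL3, from 163 ± 13.9 to 13.2 ± 0.612 CPM (mean ± SD, n = 2 each), was 12.3-fold, with a log2 fold change of -3.63 ± 0.14 (SE) and an adjusted p of 1.8e-07 (edgeR quasi-likelihood test, Benjamini-Hochberg). Under all alternatives computed this value lay between -3.91 and -3.54. H2ac24 held 76.2% and 65.0% of the summed replication-dependent level in control libraries, and 15.8% and 11.8% in RSL3 libraries. In bulk RNA such as this, fewer cells of a kind and less RNA per cell cannot be told apart.

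H4c9, an H4 gene of the same cluster on chromosome 13, was the other replication-dependent gene that fell. It stood at 4.30 and 4.42 CPM in control and at 1.86 and 2.82 CPM in RSL3 libraries, which do not overlap. Its log2 fold change was -0.91 ± 0.24 (edgeR, Benjamini-Hochberg adjusted p = 0.016). The call was lost without control replicate 2 (-0.89), without RSL3 replicate 1 (-0.66) and with only the 4 compared libraries in the fit (-0.93).

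The members that rose included 3 genes of the second histone cluster, on chromosome 3, H3c15, H2ac18 and H3c13, which encode canonical H3 and H2A. H3c15 (Gene ID 97114) stood at 0.876 and 0.541 CPM in control and at 5.02 and 4.09 CPM in RSL3 libraries. Both RSL3 libraries lay far above both control libraries. The log2 fold change was 2.70 ± 0.31, a 6.49-fold rise (edgeR, Benjamini-Hochberg adjusted p = 0.000137). H2ac18 (Gene ID 15267) stood at 0.691 and 0.990 CPM in control and at 4.25 and 4.29 CPM in RSL3 libraries, a log2 fold change of 2.36 ± 0.30 (adjusted p = 0.000273). Here, too, the groups were far apart and the RSL3 libraries were nearly equal. H3c13 (Gene ID 319154) stood at 0.993 and 1.26 CPM in control and at 6.67 and 2.46 CPM in RSL3 libraries. The groups did not overlap, but the RSL3 libraries differed from each other, and the log2 fold change of 2.01 ± 0.43 (adjusted p = 0.00498) was 1.10 without RSL3 replicate 1 and 2.75 without control replicate 2 and RSL3 replicate 2. These are small counts, from 46.6 to 127 in RSL3 and from 12.2 to 28.5 in control libraries over the 3 genes. H2ac18 and H3c14 share their strand with the annotated locus Gm20634, and H1f10 with Gm47286. H2ac18, H3c13, H2ac24, H3f3a, H1f0, H1f10 and H2ax overlap annotated loci on the opposite strand. How the counting treated strand is not given in the sources used here.

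H3c2 and H4c1, both of the first cluster, were also called higher, and were picked out after their values had been seen. Neither reached 10 counts in a control library, so both entered the fit through treated libraries, and their calls are given without p-values and support nothing. H3c2 stood at 0.385 and 0.401 CPM in control and at 1.48 and 0.932 CPM in RSL3 libraries (log2 fold change 1.61 ± 0.48). H4c1 had no count in either control library and 17.1 and 4.17 counts in the RSL3 libraries, so that it was at least 8.57-fold higher when control is set to a floor of 3 counts over the group. Both calls were lost without control replicate 1, without control replicate 2 and without RSL3 replicate 1, and that of H3c2 also with DESeq2 and without SRT1720 plus RSL3 replicate 1.

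Counted over the 57 replication-dependent genes, 19 could be tested, 5 rose, H3c2 and H4c1 included, and 2 fell. Over all 12618 genes tested, 35.8% changed, 18.3% upward and 17.5% downward, so the number that changed is near the background. The median log2 fold change of the 19 was 0.81, against 0.01 over all genes tested, but 8 of the 19 did not reach 10 counts in both control libraries, and genes that enter through their RSL3 libraries bias such a median. Among the 9 genes with at least 10 counts in all 8 libraries, 3 rose (H3c13, H3c15 and H2ac18) and 2 fell (H2ac24 and H4c9). The other 4 did not pass: H2bc4 at 19.1 and 34.2 CPM in control and 23.6 and 40.6 CPM in RSL3, H1f2 at 17.7 and 31.2 against 13.3 and 25.4 CPM, H2bc21 at 1.16 and 1.15 against 0.788 and 0.766 CPM, and H3c8 at 1.10 and 1.07 against 1.61 and 1.66 CPM. In H2bc4 and H1f2 replicate 2 exceeded replicate 1 in both groups, by 1.79-fold and 1.77-fold in control and by 1.72-fold and 1.91-fold in RSL3, which is more than the difference between the groups. The tenth gene by mean level, H4c12, stood at 0.448 and 0.699 CPM in control and 0.784 and 1.22 CPM in RSL3 libraries (log2 fold change 0.81 ± 0.59, edgeR adjusted p = 0.32). Without control replicate 2, or without RSL3 replicate 1, 3 members rose and 1 fell.

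The 38 members not tested summed to 3.88 and 4.18 CPM in control, 2.53 and 3.76 CPM in SRT1720, 8.32 and 5.94 CPM in RSL3, and 3.93 and 4.30 CPM in SRT1720 plus RSL3 libraries. The highest single value among them was 41 counts of H3c14, in RSL3 replicate 1, where the other 7 libraries had none. H3c14 shares 100% of its 100-base words with another gene, and its reads cannot be assigned to it with confidence. H3c14 and H3c15 together gave 0.876 and 0.541 CPM in control and 7.17 and 4.09 CPM in RSL3 libraries. Of the 38, 2 were at 0 in all libraries.

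**Figure D2:**
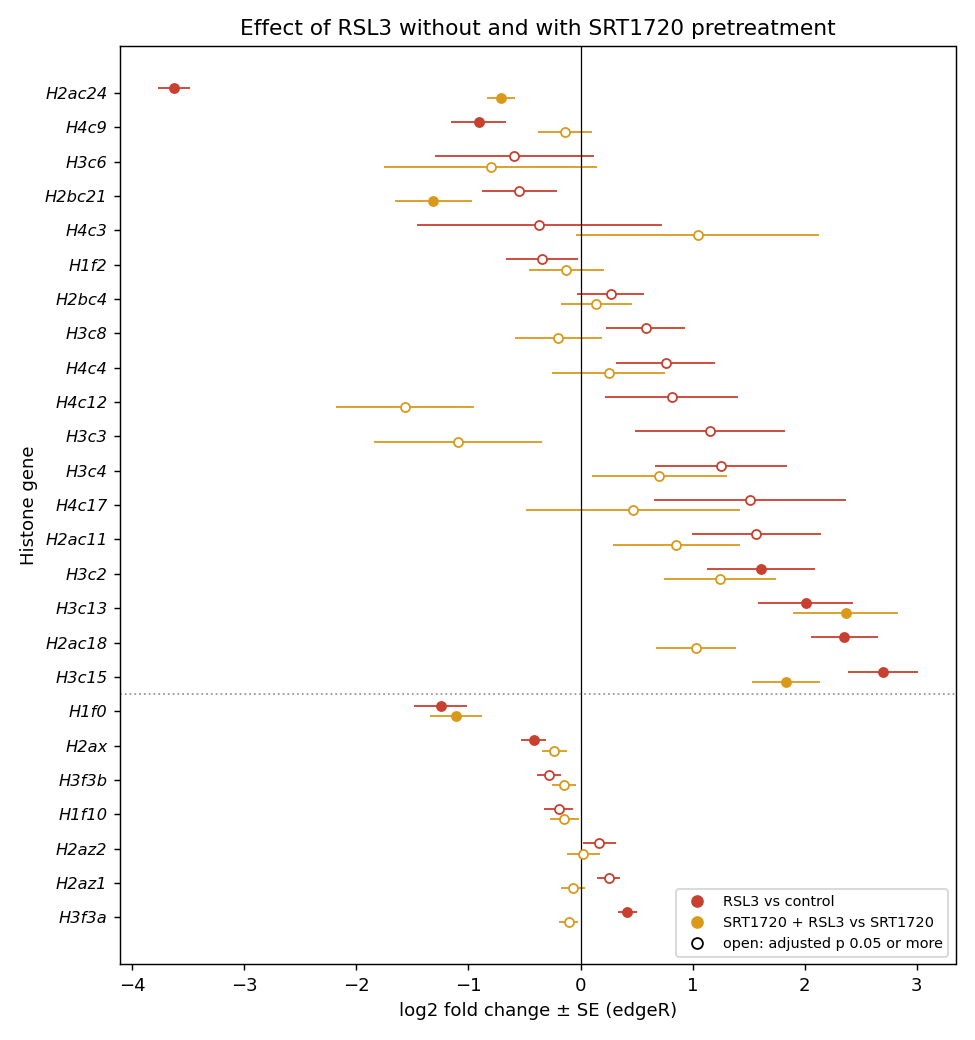
Log2 fold changes ± SE of RSL3 against control (red) and of SRT1720 plus RSL3 against SRT1720 (gold) for the tested histone genes, replication-dependent genes above the dotted line and variant or linker genes below it; filled points have an adjusted p under 0.05. H4c1 is not drawn because it had no control counts. H2ac24 is at -3.63 without and at -0.71 with SRT1720, while H3c13 and H3c15 lie to the right of 0 in both.

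Summed by family, replication-dependent H2A went from 175 and 155 CPM in control to 20.6 and 20.2 CPM in RSL3 libraries, and 98.7% and 98.4% of the control sum was H2ac24. The other 13 H2A genes together went the opposite way, from 2.21 and 2.50 CPM to 7.01 and 7.46 CPM. H2ac18, called higher above, is among the 13 and made up most of their RSL3 sum. No sum was taken without H2ac18. Replication-dependent H3 went from 4.81 and 5.08 CPM to 19.6 and 11.4 CPM, and without H3c13 and H3c15 from 2.94 and 3.28 CPM to 7.87 and 4.89 CPM. Both values of RSL3 replicate 1 include the uncertain counts of H3c14 given above. Without H3c14 alone, the H3 sum in RSL3 libraries was 17.4 and 11.4 CPM. In these sums the control and RSL3 libraries did not overlap. H2B (21.2 and 36.4 against 25.5 and 42.6 CPM), H1 (17.9 and 31.8 against 14.1 and 25.9 CPM) and H4 (7.73 and 6.54 against 6.25 and 7.70 CPM) overlapped between the groups. By position, the 9 genes of the second cluster, H3c14 among them, summed to 4.11 and 4.31 CPM in control and 19.1 and 12.1 CPM in RSL3 libraries. The 47 genes of the first cluster other than H2ac24 summed to 49.7 and 78.0 CPM in control and 53.2 and 83.0 CPM in RSL3 libraries, an overlap. Sums over members are descriptions and carry no test.

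**Figure D3:**
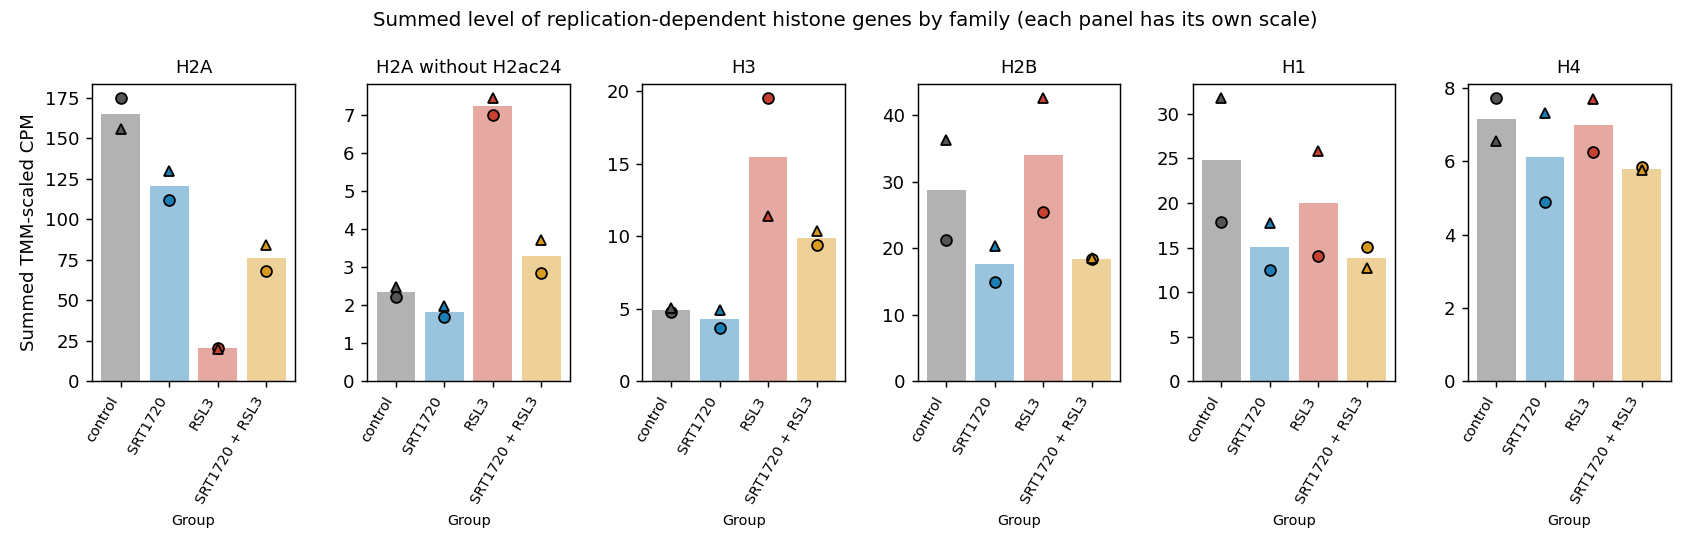
Summed TMM-scaled CPM of the replication-dependent genes of each histone family by group, with bars at the mean of 2 libraries, circles for replicate 1 and triangles for replicate 2; each panel has its own axis from 0. H2A is lowest under RSL3 (20.6 and 20.2 CPM), H2A without H2ac24 and H3 are highest there, and the H2B, H1 and H4 points of control and RSL3 overlap.

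Of the variants, H3f3b, H2az1, H3f3a and H2ax stood above every clustered gene in control as CPM, and H2az2 stood at 22.7 and 19.4 CPM. Their sum was 1478 and 1596 CPM in control and 1505 and 1621 CPM in RSL3 libraries. H3f3a, which with H3f3b encodes the replacement histone H3.3, rose from 274 and 273 to 360 and 371 CPM, clear of both control libraries (log2 fold change 0.42 ± 0.08, edgeR, Benjamini-Hochberg adjusted p = 0.00367). Scaled by library size alone, which moves the median of all genes tested to -0.27, the value was 0.13 and did not pass. H3f3b had 550 and 656 CPM in control and 466 and 528 CPM in RSL3 libraries and did not pass (-0.28 ± 0.11, adjusted p = 0.0722), although it passed as lower in 4 alternatives: by library size only, without control replicate 1, without RSL3 replicate 2 and with the crossed replicate block. The H2A variant genes H2az1 and H2az2, whose product H2A.Z is placed at promoters, did not pass either, at 0.25 ± 0.10 (adjusted p = 0.0848) and 0.17 ± 0.15 (adjusted p = 0.409), and H2az1 passed as higher with the replicate block and without RSL3 replicate 1 (0.33). H2ax, whose product is phosphorylated around DNA breaks, fell from 195 and 186 to 157 and 128 CPM (-0.42 ± 0.11, adjusted p = 0.0142), and the call was lost without control replicate 1 (-0.39), without RSL3 replicate 2 (-0.28) and with the 4 compared libraries alone (-0.44). Of the 5 variants, 1 rose and 1 fell, against 18.3% and 17.5% of all genes tested, so the count is near the background.

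Among the other linker genes, H1f0, the replacement linker histone of cells that leave the cycle, had 206 and 297 CPM in control and 77.7 and 134 CPM in RSL3 libraries. All RSL3 values were below all control values, and the 2.38-fold fall passed (log2 fold change -1.25 ± 0.23, edgeR, Benjamini-Hochberg adjusted p = 0.00247). H1f10, another replication-independent linker gene, had 54.5 and 57.4 CPM in control and 50.6 and 47.3 CPM in RSL3 libraries and did not pass (-0.19 ± 0.13, adjusted p = 0.273). H1f6 and H1f8, linker genes of germ cells, were not tested. H1f6 had at most 0.0442 CPM and H1f8 had 0.158 CPM in 1 library, RSL3 replicate 2, and 0 in the others.

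**Figure D4:**
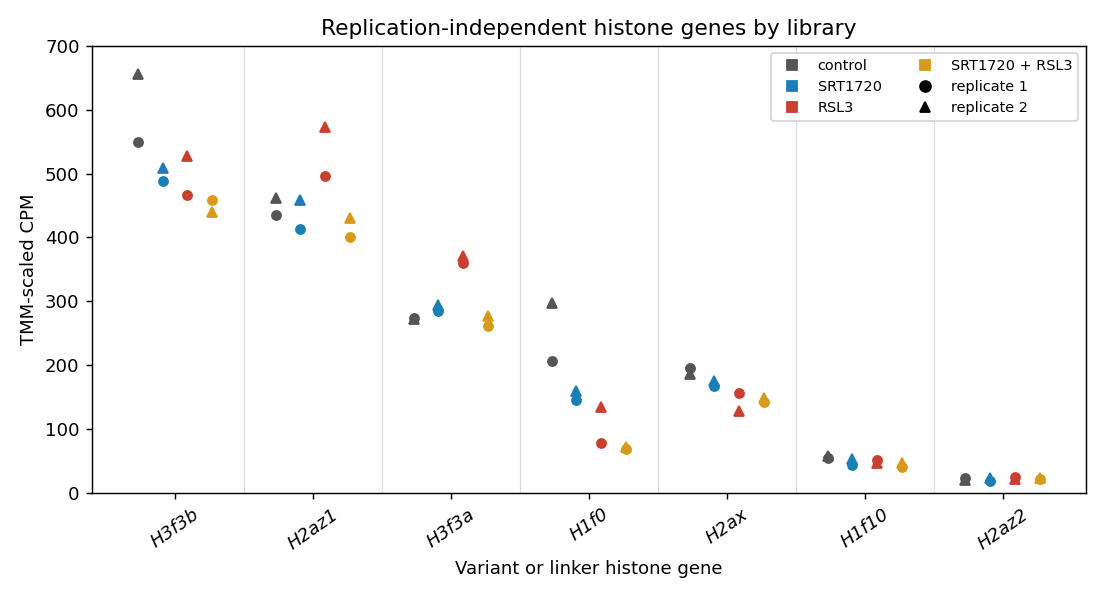
Variant and replication-independent linker genes as TMM-scaled CPM on a linear axis, with 1 point per library, colour for the group and symbol for the replicate. H3f3a is highest in the RSL3 libraries at 360 and 371 CPM, and H1f0 falls from 206 and 297 CPM in control to 69.2 and 71.7 CPM with both compounds.

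SRT1720 alone was compared with control to show what the compound changes without RSL3. None of the 26 tested members passed with edgeR, where 1.31% of all genes tested did, 1.10% upward and 0.206% downward. Among the 19 tested replication-dependent genes 3 had an unadjusted p under 0.05. So did 1 of the 5 variants and 1 of the pair H1f0 and H1f10. The share of all genes tested under that threshold is not given here, so nothing is read from these counts. With DESeq2 1 of the 19, H2ac24, passed as lower, where 323 of 12618 genes passed as higher and 80 as lower. H2ac24 had the smallest p of the 19 and its SRT1720 libraries, at 110 and 128 CPM, lay below both control libraries at 173 and 153 CPM (log2 fold change -0.45 ± 0.12, edgeR adjusted p = 0.131, 0.0125 to 0.683 over the alternatives). H1f0 was at 145 and 159 CPM against 206 and 297 CPM (-0.73 ± 0.23, adjusted p = 0.192), and it passed as lower in 6 alternatives, DESeq2 among them.

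SRT1720 given before RSL3 was then compared with RSL3 alone. H2ac24 was higher in the pretreated cells, at 72.9 ± 10.4 against 13.2 ± 0.612 CPM, a 5.52-fold difference (log2 fold change 2.47 ± 0.14, edgeR, Benjamini-Hochberg adjusted p = 1.7e-05). H2ac18 was lower, at 0.992 and 1.45 CPM against 4.25 and 4.29 CPM (-1.79 ± 0.29, adjusted p = 0.00297). These were the only calls among the 19 replication-dependent genes tested, where 20.2% of all genes tested changed, 11.4% upward and 8.75% downward. In alternatives the number that fell was larger: 3 without either control library or either RSL3 library in turn, and 2 without either SRT1720 library. H3c13 (3.37 and 3.52 CPM against 6.67 and 2.46 CPM, -0.40 ± 0.38, adjusted p = 0.502) and H3c15 (3.11 and 3.30 CPM against 5.02 and 4.09 CPM, -0.51 ± 0.26, adjusted p = 0.195) did not pass. The control libraries are not part of this comparison, but RSL3 libraries are shared with that of RSL3 against control. H3f3a was lower with pretreatment, at 261 and 277 CPM (-0.44 ± 0.08, adjusted p = 0.00606, lost without SRT1720 plus RSL3 replicate 1 at -0.39), and so was H2az1, at 401 and 431 against 497 and 572 CPM (-0.36 ± 0.10, adjusted p = 0.0351, lost in 8 alternatives). The difference for H1f0, at 69.2 and 71.7 against 77.7 and 134 CPM, did not pass (-0.59 ± 0.23, adjusted p = 0.107), but it passed as lower with DESeq2, with the replicate block (-0.54), with the crossed block and without RSL3 replicate 1 (-0.91).

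RSL3 in cells that had received SRT1720, compared with SRT1720 alone, shares no library with RSL3 against control. H2ac24 was again lower with RSL3, at 65.5 and 80.2 against 110 and 128 CPM, but only 1.63-fold (log2 fold change -0.71 ± 0.13, edgeR, Benjamini-Hochberg adjusted p = 0.00373; the call was lost without SRT1720 plus RSL3 replicate 1, at -0.57). H3c13 was higher, at 3.37 and 3.52 against 0.692 and 0.672 CPM (2.37 ± 0.47, adjusted p = 0.00648), as was H3c15, at 3.11 and 3.30 against 0.731 and 1.05 CPM (1.84 ± 0.30, adjusted p = 0.00262). Neither gene overlapped between these groups, and the call of H3c13 was lost without SRT1720 replicate 1 (2.38) or 2 (2.35). H2bc21, an H2B gene of the second cluster, was lower at 0.548 and 0.606 against 1.66 and 1.24 CPM (-1.32 ± 0.34, adjusted p = 0.0225), and this call was lost with DESeq2 and without any of the 4 libraries in turn. H2ac18 did not pass (1.03 ± 0.36, adjusted p = 0.0672). In all, 2 replication-dependent genes rose and 2 fell of the 19 tested, against 12.3% and 9.06% of all genes tested (21.3% in either direction). H1f0 fell from 145 and 159 to 69.2 and 71.7 CPM (-1.11 ± 0.23, adjusted p = 0.00875), a call that was lost when any of these 4 libraries was left out, at -1.18 to -1.04. No variant passed.

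The interaction compares what SRT1720 did in the presence of RSL3 with what it did in its absence, as a difference of log2 fold changes. H2ac24 was the 1 replication-dependent gene of 19 to pass, with an interaction of 2.92 ± 0.19 on the log2 scale (edgeR, Benjamini-Hochberg adjusted p = 8.3e-05), where 6.37% of all genes tested passed, 3.46% upward and 2.92% downward. That is, the fall under RSL3 was 12.3-fold without and 1.63-fold with pretreatment, and the difference between them passed under every alternative in which it was computed, at 2.77 to 3.07. For H2ac18 the interaction was -1.33 ± 0.48 (adjusted p = 0.14), for H3c15 -0.86 ± 0.45 (0.306), for H3c13 0.36 ± 0.64 (0.807) and for H1f0 0.14 ± 0.33 (0.859), so none of these was shown to differ. H3f3a passed at -0.52 ± 0.12 (adjusted p = 0.0303), with the call lost in 6 of the fits that leave out 1 library.

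Genes of histone mRNA 3′ end formation and decay were measured beside the members, as a list of 21 of which 20 were in the table and tested. Under RSL3, 2 rose and 3 fell, at a median log2 fold change of -0.05, where 18.3% of all genes tested rose, 17.5% fell and the median was 0.01. This list is thus near the background. Slbp, the hairpin-binding protein gene, rose from 84.7 and 78.7 to 150 and 138 CPM (0.82 ± 0.09, edgeR, Benjamini-Hochberg adjusted p = 0.00015), and Lsm11, of the U7 snRNP, fell from 15.02 and 16.36 to 8.85 and 9.29 CPM (-0.79 ± 0.13, adjusted p = 0.00137). Fip1l1, of the polyadenylation complex, rose (0.53 ± 0.09), and Ncbp2, of the cap-binding complex, and Cdk9, the elongation kinase, fell (-0.54 ± 0.11 and -0.39 ± 0.09). Lsm10 (0.03 ± 0.19), Cpsf3 (-0.07 ± 0.13) and Casp8ap2 (-0.07 ± 0.16), the last known to bind Lsm11, did not pass. With SRT1720 before RSL3, Lsm11 was higher than with RSL3 alone (0.49 ± 0.14, adjusted p = 0.0324), whereas Slbp did not pass (-0.21 ± 0.09, adjusted p = 0.147). Of the 20 genes, 3 rose in that comparison (Lsm11, Eri1 and Cdk9) and 1 fell (Tut4), beside 11.4% and 8.75% of all genes tested. None of the 20 passed in the interaction.

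Of 13 genes of histone gene transcription, 7 rose and 1 fell under RSL3, at a median of 0.38, beside 18.3% and 17.5% of all genes tested and their median of 0.01, against which the counts of the lists that follow are also to be read. Npat, the coactivator of the clusters, did not pass (0.30 ± 0.16, adjusted p = 0.163), Ccne2, a cyclin of the kinase that phosphorylates it, rose (0.91 ± 0.12, edgeR adjusted p = 0.000286), and so did the E2F factor gene E2f3 (0.99 ± 0.10, adjusted p = 5.55e-05). Gon4l fell (-0.54 ± 0.10). Of 30 genes of S phase and DNA replication, 13 rose and 3 fell at a median of 0.20, with Cdt1 (1.13 ± 0.13) and Cdc6 (1.06 ± 0.11), both of origin licensing, among those that rose. Of 20 genes of G2 and mitosis none rose and 18 fell, at a median of -0.68, with Plk1 (-2.04 ± 0.14) and Haspin (-3.96 ± 0.20), the kinase of histone H3 at centromeres, among them. Haspin was also higher with SRT1720 before RSL3 than with RSL3 alone (1.57 ± 0.22, adjusted p = 0.00137), with an interaction of 1.79 ± 0.27 (adjusted p = 0.00547). It was the 1 gene of the 20 to pass in the interaction, where 6.37% of all genes tested passed. In SRT1720 plus RSL3 against RSL3, 4 of the 20 rose and 2 fell at a median of 0.03, beside 11.4% and 8.75% of all genes tested. Against SRT1720, 17 of the 20 fell at a median of -0.64, beside 9.06% of all genes tested. Of 23 genes of histone chaperones and importers, 6 rose, among them Nasp (0.74 ± 0.14), a carrier of H3 and H4, and Ubn1 (1.10 ± 0.12), of the H3.3 deposition complex, and 5 fell, among them Daxx (-0.76 ± 0.11), another H3.3 chaperone, and Hjurp (-1.02 ± 0.13), the chaperone of Cenpa. Cenpa itself, the centromeric H3, fell by 0.68 on the log2 scale. It was the 1 gene to change of 4 tested variant genes that the symbol rule leaves out. Their median was -0.15. The part that these cell cycle genes have in the histone values was not tested. With SRT1720 alone 1 gene of these lists, which do not include the cell type markers below, passed with edgeR. It was Macroh2a2, a macroH2A gene that the symbol rule leaves out, which fell from 37.6 and 41.8 to 25.8 and 27.4 CPM (-0.57 ± 0.11, adjusted p = 0.0384).

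The cells carried the markers of fibroblasts, with 12 of 13 listed markers in the table and summed levels of 6758 to 10737 CPM. Summed over 6 of 7 macrophage markers the level was 15.7 to 18.8 CPM in control, 24.5 to 27.4 CPM in SRT1720, 27.6 to 36.1 CPM in RSL3 and 32.4 to 34.9 CPM in SRT1720 plus RSL3 libraries. Over 5 of 6 endothelial markers it was, in the same order, 1.64 to 2.49, 5.64 to 6.13, 4.11 to 5.62 and 10.2 to 10.7 CPM. Over 7 epithelial markers it was 1.06 to 1.15, 1.25 to 1.28, 1.43 to 1.45 and 2.50 to 3.72 CPM. Over 6 of 7 markers of pluripotent and germ cells, with Sycp3 at 0, it was 0.274 to 0.327, 0.331 to 0.501, 0.383 to 0.542 and 0.256 to 0.386 CPM. Of the tested ones, 4 of 11 fibroblast, 3 of 3 macrophage and 1 of 3 endothelial markers rose under RSL3, beside 18.3% of all genes tested, none fell, and neither of the 2 tested epithelial markers passed. By library size only, the calls of the 4 fibroblast markers (Pdgfra, Pdgfrb, Vim and Fn1) and of the macrophage marker Cd14 were lost. All but that of Vim were also lost in other alternatives. In all, Cd14 was lost in 9, Fn1 in 7, and Pdgfra and Pdgfrb in 3 each. With SRT1720 alone 1 of 3 tested endothelial markers, Vwf, rose (2.82 ± 0.53, edgeR adjusted p = 0.0352), beside 1.1% of all genes tested. No other marker passed there. In SRT1720 plus RSL3 against RSL3, 4 fibroblast markers fell (Col1a1, Col1a2, Pdgfrb and Postn), and 2 endothelial markers (Cdh5 and Kdr) and 1 epithelial marker (Grhl2) rose. Their part in the histone values was not tested. Libraries of the control pair and of the RSL3 pair differed more from each other than those of the other pairs did, with an SD of the log2 difference over 7062 genes of 0.235 and 0.286 against 0.140 in SRT1720 and 0.151 in SRT1720 plus RSL3. The difference between the libraries of a pair went with GC content at a Spearman's rho of -0.40 (control), -0.49 (RSL3), 0.19 (SRT1720 alone) and 0.38 (both compounds), and with transcript length at 0.25, 0.30, 0.070 and -0.58, across genes, which are not independent replicates. With trends of GC content and length removed, H2ac24, H4c9, H3c13, H3c15, H2ac18, H3c2 and H4c1 kept their calls in RSL3 against control.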

How the data were processed

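RNA of 8 libraries was measured by sequencing of libraries made with the TruSeq Stranded mRNA LT kit, per the labels. The deposited table held expected counts, which are estimated read counts that need not be whole, with an NCBI Gene ID and a symbol per gene; all of its 8 sample columns were used. No aligner, counter, build or annotation is given in the sources used here, so genes carry no coordinates from the table. In the labels the RNA extraction text speaks of HT1080 cells and lung homogenates, although every sample is labelled MEF, and doses written "um" were read as µM. Columns were matched to replicates by library name: a bare name was taken as replicate 1 and one with a suffix as replicate 2.

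The test was that of edgeR 4.0.16 (R 4.3.3) on expected counts after rounding: TMM scaling, filterByExpr by group (minimum count 10), a quasi-likelihood fit of 4 group means to all 8 libraries (4 residual and 5.73 prior degrees of freedom, common dispersion 0.0112), two-sided, with Benjamini-Hochberg adjustment over 12618 genes and a threshold of 0.05. The step was tested on simulated data. Levels are TMM-scaled CPM computed from the deposited counts. Transcripts came from GENCODE M21, and promoters and gene order from RefSeq GRCm38.p6. An adjusted p in parentheses without a method is from edgeR. The SE was derived from the log2 fold change and the F statistic.

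Members, lists and the rule for named genes were chosen with earlier results of these data known. The rule took the 10 replication-dependent genes of highest mean level, up to 6 that rose and 6 that fell most under RSL3 (mean at least 2 CPM), 7 variant and linker genes, in other comparisons up to 6 members past the threshold, or the one with the smallest p, and, of the other lists, up to 4 genes of smallest p and 7 genes in every case; not all list genes it names are printed. Of these 7, Symplk is not analysed here, nor are 16 RNAs made without a poly(A) tail. Alternatives were DESeq2 1.42.0, limma-voom (limma 3.58.1), RLE factors, scaling by library size, testing without the low-count filter, a block for the replicate number, GC and length trends removed, the compared libraries alone and each library left out. Another pair was added after seeing the data. Same-numbered libraries deviated together in some pairs of groups and oppositely in others, so the main fit has no block.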

Additional observations from a re-analysis of the deposited data

Results flagged for a closer look

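The effect of SRT1720 differed between cells with and without RSL3 for a pair of members, by the test of the interaction itself. For H2ac24 the difference was 2.92 on the log2 scale (edgeR, Benjamini-Hochberg adjusted p = 8.3e-05), since SRT1720 went with 5.52-fold higher H2ac24 in RSL3-treated cells and with a log2 fold change of -0.45, which did not pass, in cells without RSL3. For H3f3a the difference was -0.52 (adjusted p = 0.0303), with log2 fold changes of -0.44 and 0.08 for SRT1720 with and without RSL3, and the call was lost in 6 of the fits that leave out 1 library. Groups of 2 libraries are too small to look for single outlying libraries.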

How the results depend on the processing

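Calls were the same under every alternative for H2ac24, H3c13, H3c15, H2ac18 and H1f0 in RSL3 against control, for H2ac24 and H2ac18 in SRT1720 plus RSL3 against RSL3, for H3c15 against SRT1720, and for the H2ac24 interaction. The cause of the changes below was not tested. Of 77 single-gene results, 43 kept their direction and side of the threshold throughout. Counts were low in the clustered genes, of which 45 of 57 averaged under 10 per library.

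Counts of replication-dependent genes that passed changed as follows. Under RSL3 2 fell, and 1 with only the compared libraries (1 to 3 with 1 library left out), while 5 rose (3 to 7). With SRT1720 alone 0 fell, 1 with DESeq2, 1 with GC and length trends removed, and 1 without control replicate 2 and RSL3 replicate 2. In SRT1720 plus RSL3 against RSL3 1 fell, 2 without the low-count filter, 2 with DESeq2, 3 with only the compared libraries, 4 without control replicate 2 and RSL3 replicate 2, and 1 to 3 with 1 library left out. Against SRT1720 2 fell (1 with DESeq2, 0 to 2 with 1 library left out) and 2 rose (4 with only the compared libraries, 4 without control replicate 2 and RSL3 replicate 2, 1 to 2 with 1 library left out). The summed level in control, 231 CPM, was 253 CPM by library size only. With H2ac24 the sum was lower in RSL3 (96.9 CPM) than in control. Without H2ac24 the mean was 83.7 CPM in RSL3, 68.1 CPM in control, 44.95 CPM in SRT1720 and 51.3 CPM in SRT1720 plus RSL3. The control libraries (53.8 and 82.3 CPM) and the RSL3 libraries (72.4 and 95.1 CPM) then overlapped.

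Some single-gene log2 values changed sign, and the value of the changed sign passed in none of these cases, although Cpsf3 by library size only (-0.35), H2az1 without RSL3 replicate 1 (0.33) and the values so marked passed in their main direction. In RSL3 against control, by library size only they were -0.033 for H2az1, -0.12 for H2az2, -0.012 for H2bc4 and -0.26 for Lsm10, which was -0.086 with GC and length trends removed. With libraries left out they ranged from -0.20 to 0.063 for Casp8ap2, from -0.27 to 0.085 for Cpsf3, from -0.89 (past the threshold) to 0.13 for H1f2, from -0.18 to 0.75 for H2bc4 and from -0.31 to 0.28 for Lsm10. H3c13 in SRT1720 plus RSL3 against RSL3 ranged from -0.94 (past the threshold) to 0.50, and the interactions of H1f0 and H3c13 from -0.19 to 0.59 and from -0.38 to 1.26.

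Same-numbered libraries deviated together between control and RSL3, with a correlation of 0.70 across genes, but not across all groups. The correlation was -0.29 and -0.40 between these and SRT1720 plus RSL3, and near 0 with SRT1720. With the replicate number as a block, 2 replication-dependent genes fell in SRT1720 plus RSL3 against RSL3, and under RSL3 6 rose and 2 fell. With the numbers of SRT1720 plus RSL3 crossed, 2 fell with SRT1720 alone, 3 in SRT1720 plus RSL3 against RSL3 and 1 in the interaction.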
